A study of Mus musculus with 2 samples.

Results

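CD8 T cells of the mouse lung were taken from 2 libraries of single-cell RNA by the transcripts that define them. A droplet counted as a CD8 T cell when it held at least 1 UMI (unique molecular identifier, the mark of 1 captured transcript) of the CD3 genes Cd3d, Cd3e and Cd3g summed and at least 1 UMI of Cd8a and Cd8b1 summed. It also had to hold no UMI of Cd4 and none of 5 genes of other lineages, which were Cd79a of B cells, Cdh5 of endothelium, Epcam of epithelium, Col1a2 of fibroblasts and Csf3r of neutrophils. Of 15695 filtered droplets, 371 met the rule: 240 of 7988 in the control library and 131 of 7707 in the treated library. These counts chose the cells, so the CD3, CD8 and CD4 genes are given as a description only.

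Lungs were taken whole, from BALB/c mice that were female and 9 to 10 weeks old. Over 3 weeks these had received, into a vein, either control media, abbreviated CM, or tumor conditioned media, abbreviated TCM, TCM being medium in which 4T1 breast tumors had been kept, so that no tumor was present in the animals. Each group had 1 library, and how many mice went into it was not stated. No difference could therefore be set against the spread between mice, no p-value was computed, and the intervals below are 95% intervals that cover counting error only.

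CD8 T cells recognise peptides held by MHC class I molecules and can kill the cell that shows them with granzymes and perforin. Naive cells circulate through lymphoid organs, guided by the chemokine receptor CCR7. Cells that have met antigen lose much of this program, gain the chemokine Ccl5, Nkg7 and granzymes, and can stay in tissues such as the lung, where they take part in immunity to infection and to tumor cells.

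The library totals were 31944151 UMIs for CM and 36648719 for TCM. The cells had a median of 2841 UMIs and 1079.5 genes in CM, and of 2634 UMIs and 1103 genes in TCM. RNA from outside the cells (free RNA) was estimated at 6.41% of their UMIs in CM and 9.31% in TCM. The kept droplets of both libraries shared 93 barcodes, none of which was a CD8 T cell in both. Of the CM cells 4 had a barcode kept in TCM, and of the TCM cells 1 had a barcode kept in CM.

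The droplets carried the genes of alpha-beta T cells. Cd8b1 (ENSMUSG00000053044, chr6:71322788-71337494 on the plus strand of GRCm38), which encodes the beta chain of CD8, was seen in 215 CM and 121 TCM cells. Cd8a (chr6:71373427-71379173), which encodes the alpha chain and lies close by, was the only CD8 gene seen in 25 and 10 cells. Trbc2, the second constant gene of the T cell receptor beta chain and no part of the rule, was seen in 40.4% of the CM cells (interval 34.2 to 46.9%) and 34.4% of the TCM cells (26.3 to 43.1%). In B cells, defined by Cd79a, the shares were 1.27% and 0.565%, at median depths of 1836 and 1694.5 UMIs. The 6 genes of gamma delta T cells summed to 8 UMIs in CM and 2 in TCM, and the 7 genes of NK cells to 11 and 1. Foxp3, which defines regulatory T cells, had 0 UMIs in CM and 1 in TCM.

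Near the edge of the rule, 16 CM and 8 TCM cells had exactly 1 CD3 and 1 CD8 UMI. Just outside it stood 541 CM and 382 TCM droplets with CD3 and neither Cd4 nor CD8, for which the median depth was 1429 and 1998.5 UMIs. A further 6 and 3 droplets had CD3, CD8 and Cd4 together, and 58 and 49 had CD3 and CD8 with a gene of another lineage.

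The first question was how frequent CD8 T cells were. They made up 3.00% of filtered droplets in CM (interval 2.64 to 3.40%) and 1.70% in TCM (1.42 to 2.01%), a ratio of 0.566 (0.454 to 0.703). The share depended on what it was divided by. Over CD3 droplets without the genes of other lineages it was 25.8% in CM (23.0 to 28.8%) and 20.9% in TCM (17.8 to 24.3%), and that ratio of 0.810 had an interval from 0.650 to 1.01. Droplets with a Csf3r UMI, which marks neutrophils, were 4.28% of the CM droplets and 20.9% of the TCM droplets. Without them the ratio was 0.685 (0.549 to 0.850). CD4 T cells, defined in the mirrored way, numbered 142 and 110, so that CD8 T cells were 62.8% of both kinds in CM (57.8 to 67.7%) and 54.4% in TCM (47.8 to 60.8%). Fewer CD8 T cells and more cells of other kinds cannot be told apart in such shares.

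Most of the cells carried the transcripts of naive and recirculating T cells. Ccr7 was seen in 190 of 240 CM cells and 110 of 131 TCM cells, and its level was 123.5 and 139.5 UMIs per 100000 UMIs of these cells. Lef1 and Tcf7, transcription factors of naive T cells, were seen in 163 and 150 CM cells and in 92 and 76 TCM cells. Il7r, the receptor for the survival cytokine IL-7, was seen in 175 and 100 cells. B cells also carry Ccr7 (58.1% and 59.3% of them), while NK cells did so in 2.42% and 2.33%. Ccr7 without Ccl5 was found in 158 CM cells (65.8%, interval 59.5 to 71.8%) and in 87 of the TCM cells (66.4%, 57.6 to 74.4%), shares that lie well inside each other's interval.

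Of the 14 naive and homing genes, which all had at least 40 UMIs over both libraries, 9 were higher in TCM and 5 were lower, with a median log2 ratio (TCM over CM) of 0.19. Over all 3279 genes with at least 40 UMIs the median was -0.03, and 1.46% of them were at least 2-fold higher in TCM and 2.41% at least 2-fold lower. None of the 14 was past 2-fold. Foxp1, a factor that holds T cells in the naive state, had a log2 ratio of 0.47 (interval 0.14 to 0.80), and Bach2, a repressor of effector genes, of 0.89 (0.15 to 1.63). Ccr7 had a log2 ratio of 0.18 (0.01 to 0.34) and Tcf7 of -0.03 (-0.33 to 0.26). Without the 5 proliferating CM cells described below, the median of the 14 genes was 0.025. Foxp1 then gave 0.34 (0.0048 to 0.67), still above counting error, while Bach2 at 0.72 (-0.03 to 1.45) and Ccr7 at 0.0092 (-0.15 to 0.17) had intervals that held 0.

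**Figure D1:**
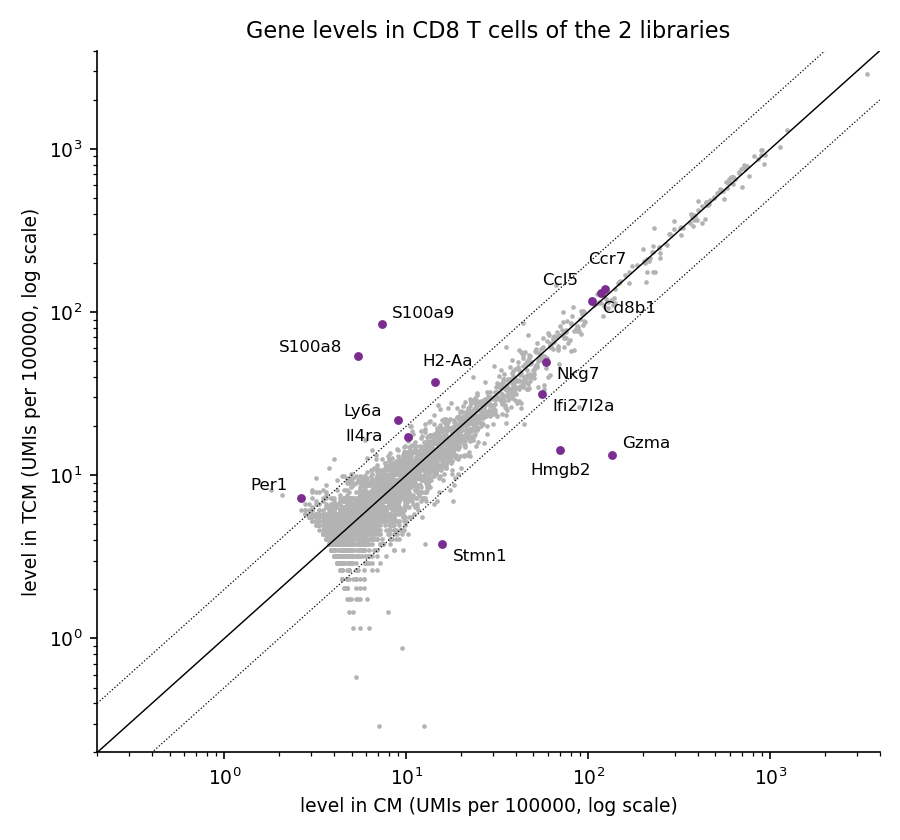
Level of each gene in CD8 T cells of CM (x axis) and of TCM (y axis), in UMIs per 100000 on log scales, for genes with at least 40 UMIs in total and 1 in each library. The solid line marks equal levels and the dotted lines 2-fold differences. Ccr7, Ccl5 and Cd8b1 lie near the line, S100a8 and S100a9 above it, and Gzma, Hmgb2 and Stmn1 below it.

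A smaller set carried Ccl5, a chemokine of memory and effector cells. At least 1 Ccl5 UMI was seen in 42 CM cells (17.5%, interval 12.9 to 22.9%) and in 29 of TCM (22.1%, 15.4 to 30.2%). Cells with at least 1000 UMIs, 199 in CM and 111 in TCM, were also thinned to 1000 UMIs each by a random draw. The shares were then 12.6% (8.30 to 17.98%) and 9.91% (5.05 to 17.04%), with intervals that overlap. In some other draws, made with part of the cells left out, the share was higher in TCM. The order of the libraries at equal depth was therefore not settled. B cells, which should lack Ccl5, had a Ccl5 UMI in 10.4% and 10.7% of cells, and in 5.25% and 4.56% after thinning. At least 2 Ccl5 UMIs were found in 19 CM cells (7.92%) and 12 TCM cells (9.16%) with median depths of 4082 and 3088.5 UMIs. The UMIs were concentrated, with up to 163 in 1 CM cell and 190 in 1 TCM cell.

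Several genes differed between cells with and without a Ccl5 UMI in the same direction in each library. They are compared here without 5 proliferating CM cells, described below, which left 38 and 197 cells in CM beside 29 and 102 in TCM. Gzma, a granzyme, was at 56.6 in CM cells with Ccl5 and 1.57 in those without, and at 46.2 and 1.58 in TCM. Few cells carried it, as 3 CM cells held 68 of the 72 Gzma UMIs found with Ccl5 and 3 TCM cells 40 of the 42. Nkg7, a protein of cytotoxic granules, was at 81.0 and 42.9 in CM and at 97.8 and 32.0 in TCM. Il2rb, the receptor chain for IL-2 and IL-15 that memory cells carry, was at 21.2 and 11.0 in CM and at 26.4 and 10.3 in TCM. Lgals1, a galectin of activated T cells, was at 34.6 and 11.7 in CM and at 60.4 and 13.8 in TCM. Each of these was higher with Ccl5 in both libraries, with log2 intervals above 0. Gzmk, a granzyme of memory cells, had 9 UMIs in 2 of the CM cells with Ccl5 and 8 UMIs in 4 of those of TCM, and 0 in the cells without Ccl5. Igfbp4, a marker of naive cells, went the other way, with 5.51 against 26.04 in CM and 7.69 against 22.9 in TCM. S1pr1, the receptor by which cells leave lymphoid organs, was at 14.9 and 26.8 in CM and at 14.3 and 33.2 in TCM. Lef1 was at 38.6 and 55.2 in CM and at 33.0 and 59.6 in TCM. Ccr7 itself was still at 128.2 in cells with Ccl5 of CM and 111.0 in those of TCM, beside 141.2 and 149.7 without. Other genes did not follow. Ly6c2, a surface protein of memory cells, differed by 0.0066 (-0.72 to 0.68) and 0.27 (-0.68 to 1.15) on the log2 scale. Ctsw differed by -0.14 (-0.69 to 0.38) in CM and 0.92 (0.23 to 1.60) in TCM. Itga4 differed by -0.49 (-1.43 to 0.34) in CM and 0.85 (0.19 to 1.49) in TCM. Klrd1 differed by 0.0066 and 0.63, and perforin (Prf1) by -0.62 and -0.26, each with an interval that held 0. A single UMI splits a range of levels and does not define a type.

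**Figure D2:**
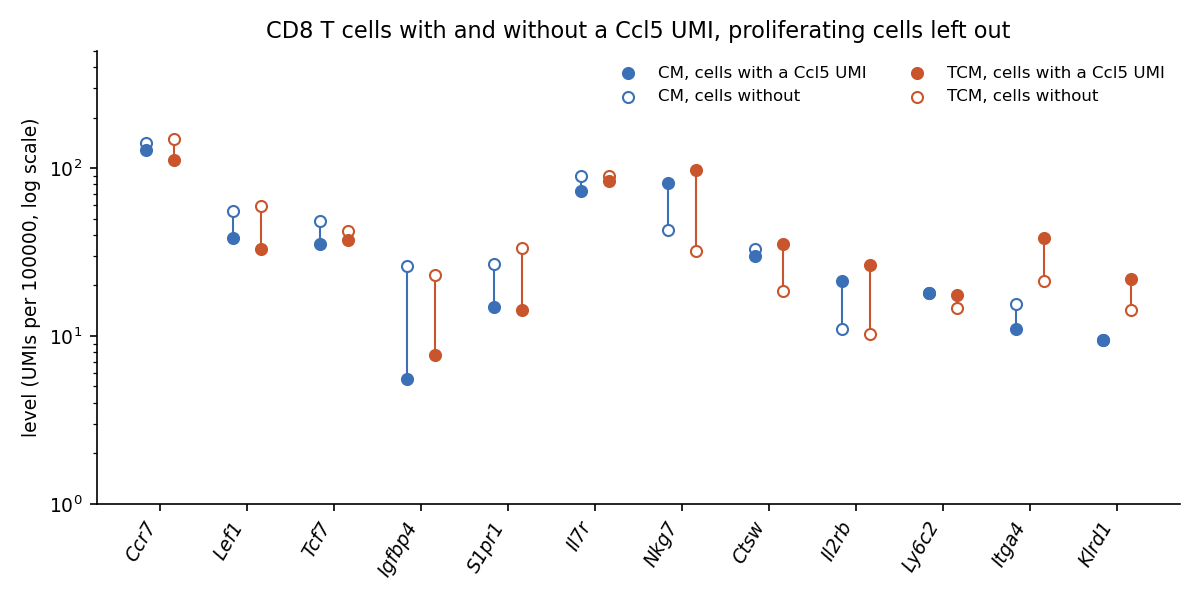
Level in UMIs per 100000 (log scale) of 12 genes in CD8 T cells with a Ccl5 UMI (filled) and without (open), CM in blue and TCM in orange, proliferating cells left out. Igfbp4, S1pr1 and Lef1 are lower and Nkg7 and Il2rb are higher in cells with Ccl5 in both libraries. Ctsw and Itga4 are lower with Ccl5 in CM and higher in TCM.

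A few proliferating cells of CM held most of the UMIs of several genes that were lower in TCM. Gzma (chr13:113093825-113100981 on the minus strand) had 972 UMIs in 18 CM cells and 46 UMIs in 9 TCM cells, a level of 134.6 against 13.4 and a log2 ratio of -3.33 (-3.79 to -2.91). Hmgb2, a chromatin protein of dividing cells, had 504 and 49 UMIs, a log2 ratio of -2.29 (-2.75 to -1.87). Stmn1, which destabilises microtubules in mitosis, had 114 and 13 UMIs, with a ratio of -2.06 (-3.02 to -1.23), and Pclaf, a factor bound to the replication clamp, had 90 and 1. The mitotic cyclin Ccnb2 had 40 UMIs in CM and 0 in TCM. Set against a floor of 3 UMIs, it was at least 2.67 lower in TCM on the log2 scale.

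Over 10 proliferation genes (Mki67, Top2a, Stmn1, Pcna, Tyms, Birc5, Mcm3, Mcm5, Cdk1 and Ccnb2), 5 CM cells held 10 or more UMIs, with 108, 95, 48, 37 and 28. The next CM cell held 6, and the highest TCM cell 3. These cells were 2.08% of the CM cells (interval 0.680 to 4.79%), and 0 of 131 in TCM allows a share of up to 2.29% by a floor of 3 cells, or 2.78% by the exact interval. Their depths of 28688, 26361, 10231, 11486 and 7439 UMIs were far above the median, and together they held 11.7% of the UMIs of the CM cells. In the first 4 of them Gzma had 475, 239, 32 and 146 UMIs and Ccl5 had 76, 60, 163 and 48, while the fifth had no UMI of either and 5 of Ccr7. The deepest cell, which held 475 of the 972 Gzma UMIs, had 77 UMIs of CD3 genes but a single one of Cd8a and none of Cd8b1, and also 28 UMIs of MHC class II genes. Each of the 5 held a segment of the T cell receptor beta chain, and the first and the third held 2. Over the 6 gamma delta and 7 NK genes, the deepest cell held 1 UMI of each list, the next 1 gamma delta UMI, and the others none. Doublets were not called, and the part of doublets in these deep cells was not tested.

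Without these 5 cells most of the difference was gone. Gzma was then at 12.5 in CM and 13.4 in TCM, for a log2 ratio of 0.09 (-0.46 to 0.63). Stmn1 gave -0.36 (-1.42 to 0.61). Hmgb2, which resting cells also carry, gave -0.67 (-1.16 to -0.19) and so was still lower in TCM by more than counting error. Genes at least 2-fold lower in TCM numbered 79 of 3279 with these cells and 27 of 2976 without them (0.907%). Genes at least 2-fold higher numbered 48 and 36 (1.21%). Among cells without a Ccl5 UMI, which leaves out 4 of the 5, 33 of 2352 genes were at least 2-fold lower in TCM (1.4%) and 19 at least 2-fold higher (0.808%). Among 10 cytotoxic genes the median log2 ratio was -0.23 with the 5 cells and 0.06 without, over the same 10 genes, of which 8 still had 40 UMIs. Ctsw, a cathepsin of cytotoxic cells, was at 31.4 in CM and 23.0 in TCM, with a ratio of -0.45 (-0.84 to -0.08) that became -0.49 without them. Klrd1, the CD94 chain of receptors that NK and CD8 T cells share, was at 10.2 in 44 CM cells and 16.3 in 37 TCM cells, a ratio of 0.67 (0.14 to 1.19). Perforin (Prf1) had 47 and 26 UMIs, a ratio of 0.21 (-0.54 to 0.94). Ccl5 stood at 117.0 and 130.5, a ratio of 0.16 (-0.01 to 0.32) that became 0.74 without the 5 cells and -0.33 without the cell of each library that held most of it, so the direction for Ccl5 was set by single cells.

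**Figure D3:**
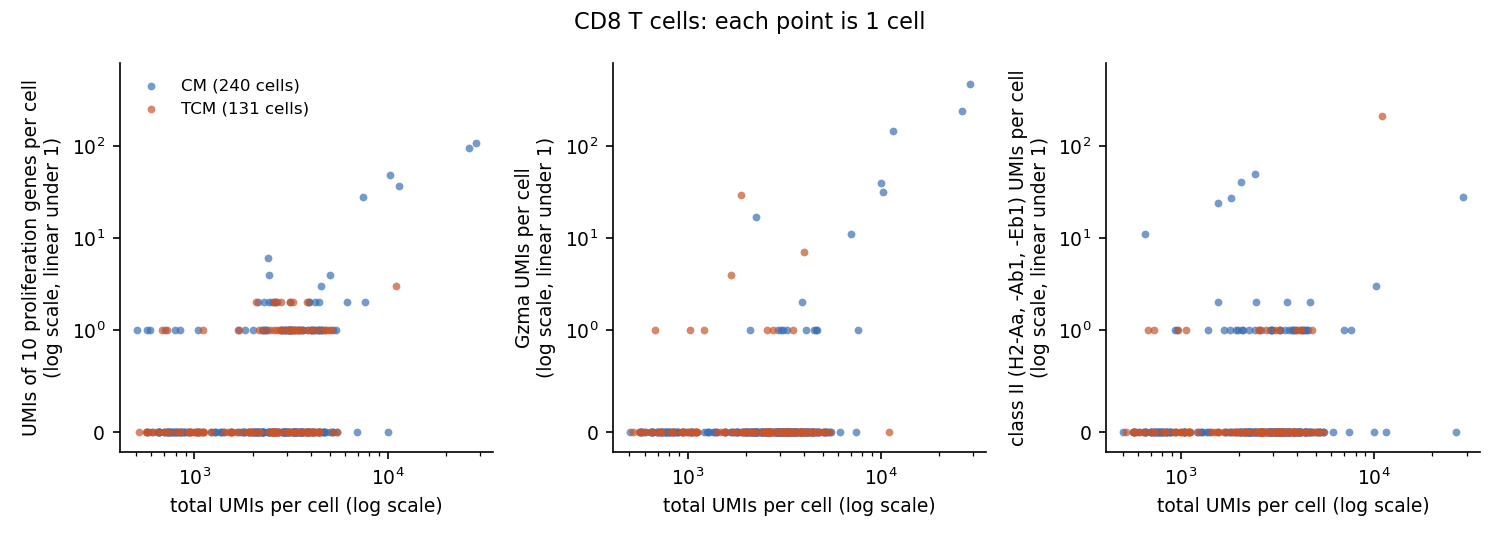
UMIs of 10 proliferation genes (left), of Gzma (middle) and of 3 MHC class II genes (right) in each CD8 T cell, against its total UMIs, CM in blue and TCM in orange. Axes are logarithmic, the y axes linear under 1. In the left panel 5 CM cells hold 28 to 108 UMIs and no TCM cell holds more than 3, and in the right panel 1 TCM cell stands at 213.

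Single cells also set the MHC class II genes, which present peptides to CD4 T cells and belong to B cells, dendritic cells, macrophages and alveolar type II cells. H2-Aa had 104 UMIs in 21 CM cells and 128 UMIs in 10 TCM cells, a log2 ratio of 1.37 (0.98 to 1.76). Of the 128, 119 lay in 1 cell of 10989 UMIs, which also held 183 UMIs of the class II chaperone Cd74, 165 of the protease inhibitor Cst3 and 12 of Irf8, a factor of dendritic cells. That cell had 8 CD3 and 7 CD8 UMIs, but no UMI of Trac or Trbc2. Without the top cell of each library H2-Aa was at 11.1 in CM and 2.70 in TCM, a ratio of -2.04 (-3.22 to -1.04), so the direction turned. In CM, 6 cells with 5 or more class II UMIs held 181 of the 224, and 5 of these had 1 to 6 CD3 UMIs and no UMI of Trac or Trbc2. No class II UMI was seen in 197 of 240 CM cells and 117 of 131 TCM cells. The rule allows a droplet that shares RNA of another cell without Cd79a or Csf3r, and its part in these values was not tested.

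The genes with the highest ratios toward TCM, among those with at least 40 UMIs, were the neutrophil genes S100a9 and S100a8. S100a9 had 53 UMIs in 9 CM cells and 290 UMIs in 63 TCM cells, a level of 7.34 against 84.3 and a log2 ratio of 3.52 (3.09 to 3.97). In TCM 196 of the 290 lay in 1 cell, and without the top cell of each library the ratio was 2.59 (2.0 to 3.20). S100a8, its partner in the calprotectin dimer, was at 5.40 and 53.5, with a ratio of 3.31 (2.80 to 3.84). Free RNA held more of both in TCM, S100a9 at 96.0 in CM and 436.6 in TCM, and S100a8 at 51.9 and 263.8. B cells differed by 3.40 in S100a9, NK cells by 4.25 and CD4 T cells by 7.26 on the log2 scale. Of the 8 neutrophil genes 4 had at least 40 UMIs, all 4 were higher in TCM, and the list summed to a level of 25.6 in CM and 165.3 in TCM. The surfactant gene Sftpc, which marks alveolar type II cells, was at 66.3 in CM and 147.0 in TCM, beside 1846 and 1860 in free RNA. Ramp2 and Pecam1 of endothelium, and Ly6a, which T cells, endothelium and stromal cells share, also had higher levels in TCM, with log2 ratios of 1.56, 1.24 and 1.28. The part of free RNA in these values was not tested beyond subtracting its estimate, after which S100a9 and S100a8 still had the highest ratios of the 3279 genes.

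Receptors for cytokines and chemokines set which signals a T cell can receive. Of 11 such genes with at least 40 UMIs 10 were higher in TCM and 1 was lower, the median log2 ratio was 0.33 beside -0.03 over all genes, and none was past 2-fold. The interval lay above 0 for 4 of the 11, and for 3 without the 5 proliferating cells. The share of all genes with such an interval was not computed, so these counts have no background to be read against. Il4ra, the receptor for IL-4 and IL-13, had 74 UMIs in 54 CM cells and 59 UMIs in 44 TCM cells, a ratio of 0.74 (0.22 to 1.26). Il6ra was at 7.34 and 12.5, a ratio of 0.77 (0.15 to 1.38) that became 0.59 (-0.03 to 1.20) without those cells. Il21r was at 17.6 and 27.6, a ratio of 0.65 (0.25 to 1.05). The gamma interferon receptor chain Ifngr1 was at 60.1 and 74.4, a ratio of 0.31 (0.08 to 0.53). Il2rg, the chain shared by receptors for IL-2, IL-7 and IL-15, was at 54.3 and 54.05. In CD4 T cells the ratios of Il4ra, Il6ra and Il21r were -0.09, 0.33 and 0.23, each with an interval that held 0. The integrin chain Itga4, which lets lymphocytes enter inflamed tissue, was at 16.9 and 25.9, a ratio of 0.61 (0.20 to 1.02). In CD4 T cells its ratio was 0.62 (0.10 to 1.14). Itga4 is 1 of 6 memory and effector genes with at least 40 UMIs, of which 3 were higher in TCM and 3 lower, with a median of -0.03. Id2, of the same list, was lower in TCM, with a ratio of -0.82 (-1.53 to -0.16) without the 5 proliferating cells.

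Genes that answer glucocorticoids differed in both directions. Of 7 such genes 6 were higher in TCM, with a list median of 0.31. Per1, a clock gene that glucocorticoids induce, had 19 UMIs in 16 CM cells and 25 UMIs in 22 TCM cells, a ratio of 1.47 (0.55 to 2.41), and in CD4 T cells it gave -0.52 (-1.76 to 0.62). Tsc22d3, known as GILZ, was at 60.9 and 72.1, a ratio of 0.24 (0.01 to 0.47) whose interval held 0 without the 5 proliferating cells (0.13, -0.11 to 0.36) and without the top cell of each library. Ddit4, an inhibitor of mTOR signalling that stress induces, was at 8.86 and 4.36, a ratio of -1.02 (-1.94 to -0.20).

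Genes induced by receptor signalling and stress were lower in part. Of 15 immediate early genes 7 were higher and 8 were lower, with a median of -0.15. Nr4a1, which T cell receptor signalling induces, had 88 UMIs in 37 CM cells and 19 UMIs in 9 TCM cells, a ratio of -1.14 (-1.94 to -0.42). Without the 5 proliferating cells it gave -0.74 (-1.57 to 0.02), an interval that holds 0, and without the top cell of each library -2.06 (-3.25 to -1.07). Zfp36, which destabilises cytokine transcripts, was at 27.8 and 20.1, a ratio of -0.47 (-0.89 to -0.07), while Junb was at 82.8 and 106.9, a ratio of 0.37 (0.18 to 0.56). Rgs1, a regulator of G protein signalling found in tissue-resident T cells, was at 10.2 and 4.36, a ratio of -1.23 (-2.14 to -0.42), and Cd69, which holds cells in tissue, was at 14.1 and 20.6, a ratio of 0.55 (0.09 to 1.0) that became 0.43 (-0.04 to 0.88) without the 5 cells. Hopx, the remaining measured residency gene, is abundant in free RNA (97.1 and 120.2) and was at 15.9 and 11.9. Of 10 heat shock genes 7 were lower in TCM. The chaperone Hsp90ab1 was at 225.8 and 175.8, a ratio of -0.36 (-0.50 to -0.23), and the mitochondrial chaperone Hspd1 at 21.6 and 13.4, a ratio of -0.69 (-1.20 to -0.21) that became -0.49 (-1.02 to 0.01) without the 5 cells. Both were also lower in CD4 T cells, with ratios of -0.44 and -0.82. The inhibitory receptors were sparse, and of 10 only Ctla4 had 40 UMIs, with 37 in CM and 14 in TCM, a ratio of -0.33 (-1.33 to 0.59). Without the 5 proliferating cells Ctla4 had 14 UMIs in each library and its ratio turned to 0.89 (-0.29 to 2.07).

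Of 11 genes of the type I interferon response 7 were lower in TCM and 4 were higher, with a median of -0.21. The only gene of this list past 2-fold was Ly6a, named above, which was higher in TCM with a ratio of 1.28. Its ratio was 1.12 (0.62 to 1.62) without the 5 proliferating cells. Ifi27l2a, the most abundant of the 11, had 403 UMIs in 107 CM cells and 108 UMIs in 46 TCM cells, a ratio of -0.83 (-1.15 to -0.52). Up to 58 of the 403 lay in 1 cell, and without the top cell of each library the ratio was -0.87. Without the 5 proliferating cells it was -0.55. In CD4 T cells Ifi27l2a went the other way, with 0.51 (0.31 to 0.71), an interval that does not overlap that of CD8 T cells. Of 10 MHC class I genes 5 were higher and 5 lower with a median of -0.03, and H2-D1, a heavy chain, was at 243.9 and 248.2. The 5 measured genes of fatty acid use had a median of -0.04. Fabp5, a fatty acid binding protein, had 40 UMIs in 18 CM cells and 4 UMIs in 4 TCM cells, a ratio of -2.25 (-4.20 to -0.78), and -1.75 without the proliferating cells. Lck, the kinase bound to CD8, was at 47.6 and 53.8, a ratio of 0.17 (-0.09 to 0.44), and 10 of 16 genes of receptor signalling were higher with a median of 0.13.

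Of the other genes with the largest differences, Cyth3, an exchange factor for ARF proteins, had 23 UMIs in 20 CM cells and 33 UMIs in 26 TCM cells, a ratio of 1.59 (0.78 to 2.42), beside -0.62 (-1.79 to 0.44) in CD4 T cells. Bhlhe40, a transcription factor of activated T cells, had 37 UMIs in 20 CM cells and 5 UMIs in 5 TCM cells, a ratio of -1.82 (-3.52 to -0.47), and -1.54 without the proliferating cells. Csrp1, a LIM domain protein, had 62 UMIs in 40 CM cells and 12 UMIs in 12 TCM cells, a ratio of -1.30 (-2.33 to -0.39). No cell held more than 6 UMIs of any of these 3, but 5 CM cells held 22 of the 37 Bhlhe40 UMIs. Cks1b, a subunit of cell cycle kinases, had 51 and 1 UMIs, and 43 of the 51 lay in the 5 proliferating CM cells.

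**Figure D4:**
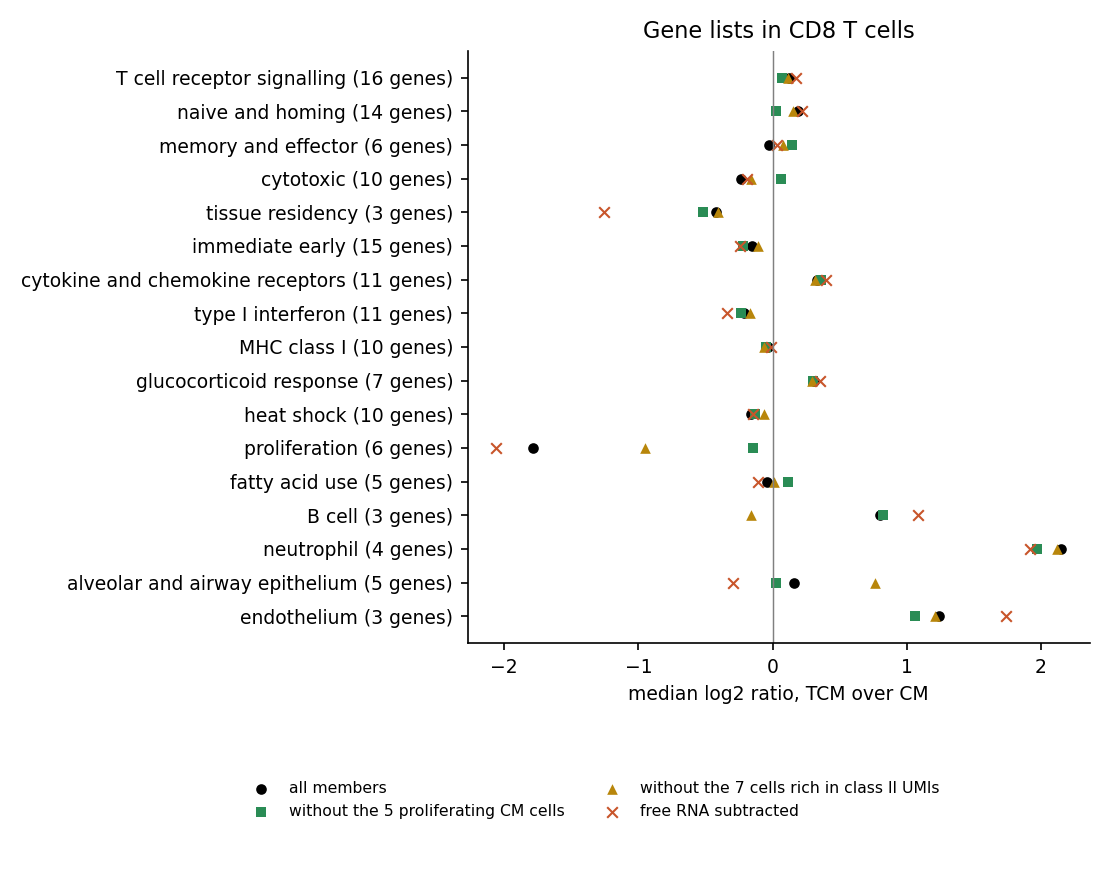
Each gene list in CD8 T cells by its median log2 ratio, TCM over CM, (number of genes with at least 40 UMIs in brackets), with all cells (black circles), without the 5 proliferating CM cells (green squares), without the 7 cells of 5 or more class II UMIs (yellow triangles), and with free RNA subtracted (crosses). The proliferation list moves from -1.79 over 6 genes to -0.14 without the 5 cells, over the 4 genes that still had 40 UMIs (-1.29 with all cells), and the B cell list, which holds H2-Aa and Cd74, from 0.80 to -0.16 without the 7.

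Compared with CD4 T cells of the same library, CD8 T cells differed in a set of genes that both libraries shared. Of 1911 genes that could be compared in both, 15 were at least 2-fold higher in CD8 T cells of each library and 26 at least 2-fold lower. Nkg7 was at 58.7 in CD8 and 1.31 in CD4 T cells of CM and at 49.4 and 2.01 in TCM. Ctsw was at 31.4 and 5.76 in CM and at 23.0 and 3.22 in TCM. Runx3, the factor that silences Cd4 in CD8 T cells, was at 9.42 and 4.19 in CM and at 9.59 and 3.22 in TCM. Cd7, a surface protein of T and NK cells, was at 17.2 and 6.28 in CM and at 16.6 and 6.43 in TCM. Klk8, which encodes a secreted protease, was at 22.9 and 10.5 in CM and at 29.1 and 10.9 in TCM. Ly6c2 was at 16.8 and 0.786 in CM and at 15.4 and 4.02 in TCM. Among the 26 genes lower in CD8 T cells were 3 surface receptors, picked after their values were seen. Icos, a costimulatory receptor, was at 6.23 in CD8 and 16.2 in CD4 T cells of CM and at 6.68 and 26.1 in TCM. Ctla4 was at 5.12 and 14.1 in CM and at 4.07 and 23.7 in TCM. Cd5, a brake on receptor signalling, was at 8.31 and 22.8 in CM and at 11.0 and 26.5 in TCM. H2-Aa, H2-Ab1, H2-Eb1 and Cd74 were also among the 15 higher genes, and the single cells rich in class II transcripts described above hold most of their UMIs.

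The libraries were read from the 5' end of transcripts, so the variable segment of the T cell receptor beta chain was seen in most cells. The rule did not use it. The segments are genes on chromosome 6, 1 of which is joined to a diversity and a joining segment in each T cell, and the join begins just after a conserved cysteine near the segment's end. A Trbv UMI was found in 183 of 240 CM cells (76.2%, interval 70.4 to 81.5%) and 104 of 131 TCM cells (79.4%, 71.4 to 86.0%), against 15 of 711 and 3 of 354 B cells. More than 1 segment was seen in 47 CM and 16 TCM cells. CM held 23 different segments among 780 UMIs and TCM 19 among 483.

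Segments of the Trbv13 family were the most frequent, in 84 of the 183 CM cells with a segment (45.9%, 38.5 to 53.4%) and 44 of the 104 TCM cells (42.3%, 32.7 to 52.4%). Trbv13-2 alone was seen in 47 and 24 cells. The last 100 bases of the family's 3 segments on GRCm38, from the GENCODE vM21 transcripts, are shown because reads of 1 could be counted for another, with capitals where Trbv13-1 or Trbv13-3 departs from Trbv13-2. They lie on the plus strand at chr6:41116369-41116468, chr6:41121733-41121832 and chr6:41130486-41130585.
Trbv13-1: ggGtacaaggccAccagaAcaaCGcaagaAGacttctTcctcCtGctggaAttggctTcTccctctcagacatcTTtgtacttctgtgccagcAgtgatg
Trbv13-2: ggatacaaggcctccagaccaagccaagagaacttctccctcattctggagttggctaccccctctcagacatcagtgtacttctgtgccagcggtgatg
Trbv13-3: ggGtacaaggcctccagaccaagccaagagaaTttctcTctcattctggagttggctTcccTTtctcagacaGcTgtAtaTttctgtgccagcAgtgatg
Over these bases Trbv13-1 is 84.0% and Trbv13-3 89.0% identical to Trbv13-2. Whether reads of 1 were counted for another was not tested, so the family count is the firmer value. The reference is another strain than BALB/c.

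Trbv31 differed in use between CD8 and CD4 T cells. It was seen in 5 of 183 CD8 T cells of CM (2.73%, 0.893 to 6.26%) and 4 of 104 in TCM (3.85%, 1.06 to 9.56%), against 16 of 114 CD4 T cells of CM (14.04%, 8.24 to 21.8%) and 12 of 91 in TCM (13.2%, 7.0 to 21.9%). In CM these intervals did not overlap, and in TCM they did. Trbv14 was seen in 16 CD8 T cells of CM (8.74%, 5.08 to 13.8%) and 10 of TCM (9.62%, 4.71 to 17.0%). Among CD4 T cells it was seen in 5 of CM (4.39%, 1.44 to 9.94%) and 0 of 91 in TCM (0 to 3.97%). For Trbv14 the intervals overlapped in CM and did not in TCM. Trbv15 or Trbv16 was seen in 10 of 183 CD8 T cells of CM (interval 2.65 to 9.82%) and 7 of 104 in TCM (2.75 to 13.4%). Among CD4 T cells either was seen in 2 of 114 in CM (0.213 to 6.19%) and 1 of 91 in TCM (0.0278 to 5.97%). The intervals of CD8 and CD4 T cells overlapped in each library, for this pair and for Trbv16 alone. The last 60 bases of these segments, Trbv14, Trbv16 and Trbv31, are shown, with the codon of the conserved cysteine in capitals. The bases after it begin the CDR3 loop, which touches the peptide. Which bases of the segments the reads covered was not examined. Trbv14 lies at chr6:41135557-41135616 and Trbv16 at chr6:41152171-41152230 on the plus strand, and Trbv31 at chr6:41557691-41557750 on the minus strand.
Trbv14: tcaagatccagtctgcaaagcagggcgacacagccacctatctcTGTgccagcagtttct
Trbv16: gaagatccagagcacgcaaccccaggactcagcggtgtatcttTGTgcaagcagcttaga
Trbv31: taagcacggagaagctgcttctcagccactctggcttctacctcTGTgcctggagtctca
UMIs of a segment were unevenly spread over cells, as 37 of the 91 Trbv14 UMIs in CM and 24 of the 63 in TCM lay in 1 cell. Between CM and TCM, each share of CD8 T cells with Trbv14, Trbv31 or the Trbv13 family lay inside the interval of the other library. Trbv29 was seen in 18 CM cells (9.84%, 5.93 to 15.1%) and 6 TCM cells (5.77%, 2.15 to 12.1%), whose intervals overlap.

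**Figure D5:**
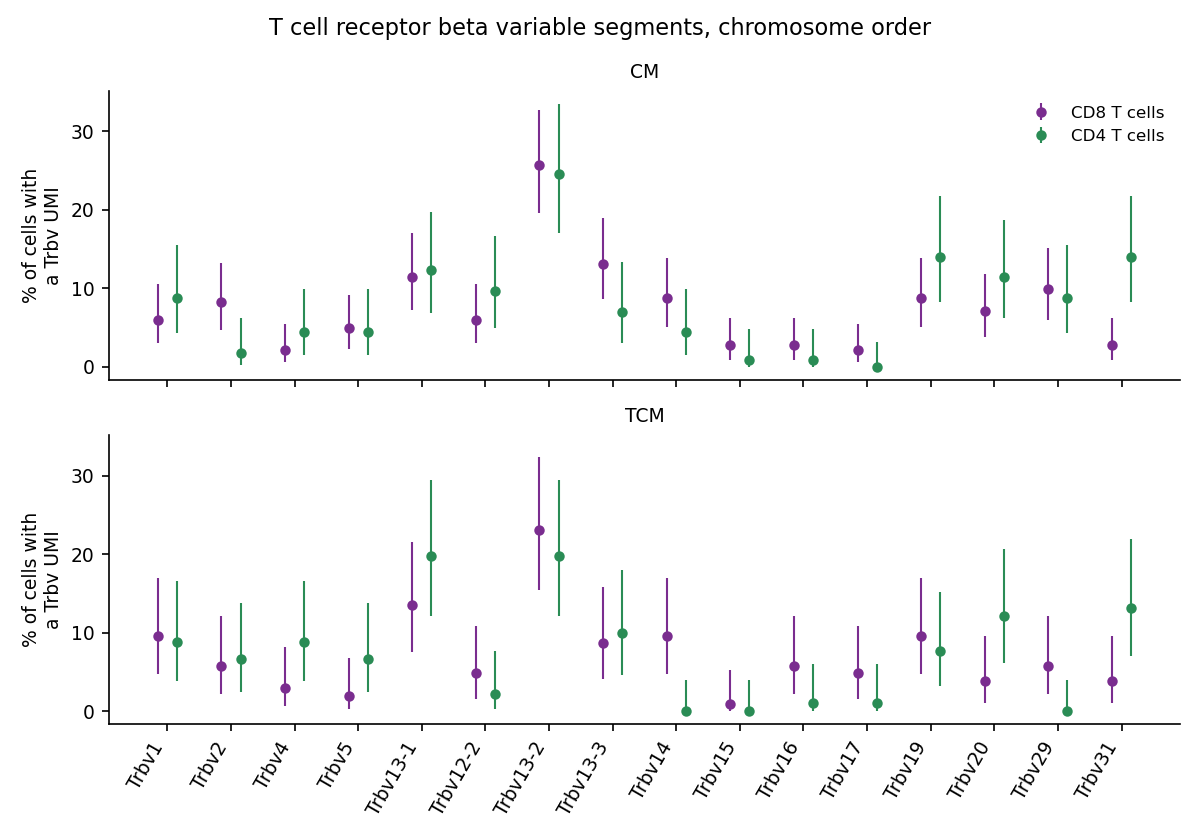
Share of cells with each Trbv segment among cells with any Trbv UMI, CD8 T cells in purple and CD4 T cells in green, CM above and TCM below, with exact binomial 95% intervals. Segments found in at least 5 cells of some group are shown in the order of the chromosome. Trbv31 is at 2.73% and 3.85% in CD8 T cells and at 14.04% and 13.2% in CD4 T cells.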

How the data were processed

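The authors prepared 5' droplet libraries (10x Genomics) and mapped them with Cell Ranger (version 4 in the file header) to mm10 (GRCm38.p6). The deposited matrices hold raw UMI counts per gene and barcode without normalization. Droplets with at least 500 UMIs, at least 200 genes and at most 10% mitochondrial UMIs were kept. No doublet caller was run. UMIs were summed over the cells of each library and given per 100000. Intervals are exact Poisson, Clopper-Pearson for shares and conditional binomial for ratios. A sum of 0 was set to 3 UMIs in a ratio. Ratios were tested on simulated sums drawn as independent Poisson counts, which is the model behind the intervals. Such sums hold no UMIs concentrated in single cells, so they do not show how the intervals hold in that case. The free RNA profile came from droplets of at most 50 UMIs and its amount from 7 epithelial and erythroid genes. Coordinates and 32158 of 32286 identifiers were matched to GENCODE vM21.

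The cells and gene lists were chosen with earlier results of these data known. Genes were named by rule: the 12 largest rises and 12 largest falls by the log2 ratio with free RNA subtracted (at least 40 UMIs in total and a UMI in 5% of cells of a library), in each list the 2 genes with most UMIs and up to 3 with the largest ratios, the rule genes, and the Trbv segments among the 6 with most UMIs. Other named genes, and the splits by proliferation and class II UMIs, were chosen after their values were seen. Scripts used Python 3.11.15, numpy 2.4.6, scipy 1.17.1 and pandas 2.3.3.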

Additional observations from a re-analysis of the deposited data

How the results depend on the processing

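With 1 library per group, depth and single cells set the limits. The ratio of shares of CD8 T cells moved to 0.420 over droplets with a Ptprc UMI and to 0.810 over CD3 droplets, and stayed under 1 in every denominator tried. Genes at least 2-fold higher in TCM numbered 24 of 2491 with 2 CD3 and 2 CD8 UMIs required. They numbered 92 of 3278 by the mean over cells and 247 of 3269 after thinning. At 100 or 10 UMIs per gene they numbered 6 of 1296 or 485 of 7540. As shares of the genes tested, those higher ran from 0.463% to 7.56%, beside 1.46% in the main setting. Those lower numbered 49 of 2977 with Cd8b1 required and 48 of 2973 without gamma delta or NK gene UMIs. They numbered 30 of 2737 without the 5% deepest cells and 27 of 2976 without the proliferating cells. Without the cells rich in class II UMIs they numbered 49 of 3115, and with free RNA subtracted 127 of 3265. After thinning they numbered 246 of 3269, and at 100 or 10 UMIs per gene 12 of 1296 or 545 of 7540. As shares of the genes tested, those lower ran from 0.907% to 7.53%, beside 2.41% in the main setting. Thinning left nearly as many genes tested as the main setting, on fewer UMIs each. The 2 settings on proliferating and class II cells, and the limit of 2 Ccl5 UMIs, were chosen after seeing the data.

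The proliferation median moved to -0.60 without gamma delta or NK gene UMIs, -0.20 without the 5% deepest cells, -0.14 without the proliferating cells (over 4 genes in place of 6), -0.69 by the mean over cells and -0.74 after thinning. Without the 5% deepest cells the cytotoxic median moved to 0.16 and the immediate early and type I interferon medians changed sign, to 0.035 and 0.020. Others that moved were the residency median, to -1.25 with free RNA subtracted, and the memory and effector median, to 0.62 by the mean over cells and 0.47 after thinning. The thinned Ccl5 share of CM was 6.53% when 2 UMIs were required, and that of TCM was 22.1% before thinning. The thinned share was higher in TCM, at 12.5% against 9.09%, without the 5% deepest cells. It was also higher in TCM with at most 5% mitochondrial UMIs, with Cd8b1 required and without gamma delta or NK gene UMIs. Each of these settings was thinned by a random draw of its own. Differences between settings therefore hold the draw as well as the cells left out, and the 2 were not separated. H2-Aa reversed to -2.39 without the 5% deepest cells, -0.75 by the mean over cells and -0.41 after thinning. Gzma reversed to 1.68 without the 5% deepest cells and 0.092 without the proliferating cells, Gzmk to 3.96, 0.72, 0.70 by the mean over cells and 0.43 after thinning, and G0s2 to -0.0078 with free RNA subtracted. Where cells were left out, the set of genes with at least 40 UMIs changed as well, which also moves list medians and gene counts. The causes of the shifts were not tested. No paired analysis was possible because each group has 1 library and no result comes from a test.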
